A study of Homo sapiens with 2 samples.

Results

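Acetylation at 9 genes of iron uptake, storage, export, sensing and cluster assembly was examined in 2 chromatin immunoprecipitation libraries for H3K27ac, the acetylated lysine 27 of histone H3 that marks active promoters and enhancers. The genes were TFRC, TFR2, SLC11A2 and STEAP3 of uptake, FTH1 and FTL of storage, SLC40A1 of export, IREB2 of iron sensing and ISCA2 of cluster assembly. Peaks were chosen by position alone, as those inside a gene record or within 50 kb of it. The ERG library had 27 such peaks of 19671 in all, and the Vector library 18 of 9161. The cells were F36P, an erythroid leukaemia line of human origin that has long been established in culture. The ERG library, titled AM-ERG and labelled as ERG overexpression, came from cells transduced with the plasmid MSCV-PIG-AM-ERG. The Vector library, labelled WT for its genotype, came from cells with the empty plasmid MSCV-PIG. Puromycin selection, 4 days at 1 µg/ml, preceded the assay in both populations. With 1 library per group there was no spread between samples, no test between the groups and no replicate check of any difference. Intervals cover counting error only.

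Iron reaches erythroid precursors mainly as a complex with transferrin. The complex binds the receptor TFRC and enters endosomes, where the reductase STEAP3 makes the metal soluble for its carrier SLC11A2. Surplus iron is held in ferritin, a shell of FTH1 and FTL chains, or leaves the cell through SLC40A1, also called ferroportin. IREB2, or IRP2, is an RNA-binding protein that stabilises TFRC mRNA and blocks ferritin translation when iron is scarce. TFR2 is a second transferrin receptor, known in liver and erythroid cells as a sensor, and ISCA2 acts late in the assembly of mitochondrial iron-sulphur clusters.

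The upstream sequences of 4 of these genes are shown because the results on uptake and cluster assembly turn on their start sites. They are the 250 bases before a RefSeq start site (GRCh38.p14), read 5′ to 3′ along the gene's own strand. TFRC lies at chr3:196082091-196082340 (minus strand) and had the strongest gene-end peaks of the set. The SLC11A2 window, at chr12:51026385-51026634 (minus strand), belongs to the single start of that gene with a peak close by, found in the ERG library alone. The STEAP3 window, at chr2:119223584-119223833 (plus strand), precedes a peak of the Vector library alone. The ISCA2 window, at chr14:74493515-74493764 (plus strand), precedes peaks of 21 fragments in the ERG and 22 in the Vector library. Capitals mark the ETS words CCGGAA and CAGGAAG, the GATA word AGATAA and the antioxidant element TGACNNNGC on either strand.
TFRC: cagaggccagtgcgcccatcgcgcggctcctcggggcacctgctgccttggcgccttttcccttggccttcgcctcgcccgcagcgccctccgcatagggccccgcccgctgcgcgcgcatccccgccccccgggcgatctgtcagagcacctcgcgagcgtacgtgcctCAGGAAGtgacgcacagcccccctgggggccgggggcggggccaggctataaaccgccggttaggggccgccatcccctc
SLC11A2: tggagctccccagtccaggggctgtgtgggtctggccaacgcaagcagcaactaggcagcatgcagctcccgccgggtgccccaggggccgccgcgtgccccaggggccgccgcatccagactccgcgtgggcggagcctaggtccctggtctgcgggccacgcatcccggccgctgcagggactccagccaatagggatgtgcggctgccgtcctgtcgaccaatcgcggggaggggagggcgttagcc
STEAP3: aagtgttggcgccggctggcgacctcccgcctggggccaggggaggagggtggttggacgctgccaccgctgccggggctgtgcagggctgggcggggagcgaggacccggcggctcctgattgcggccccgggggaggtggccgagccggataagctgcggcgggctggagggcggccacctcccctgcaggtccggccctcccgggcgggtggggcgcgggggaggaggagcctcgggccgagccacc
ISCA2: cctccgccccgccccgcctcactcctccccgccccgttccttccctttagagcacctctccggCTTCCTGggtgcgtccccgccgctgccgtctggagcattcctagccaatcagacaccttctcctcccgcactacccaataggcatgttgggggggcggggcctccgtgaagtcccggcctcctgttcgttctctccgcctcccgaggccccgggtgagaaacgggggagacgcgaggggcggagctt

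Of the 9 genes, 7 had entries in the RefSeq promoter table, with 11 start sites in all. Each window searched ran from 250 bases before to 50 after the start. The word CAGGAAG was found at TFRC, first base at -80 from the start site (counted as 0), and at ISCA2 on the opposite strand at -187. It occurred in 12.7% of all 35116 promoters of the table. CCGGAA, present in 17.2% of all promoters, was found at the SLC11A2 start shown, 16 bases after it and so outside the printed part. AGATAA (10.3% of all promoters) was found only at another SLC11A2 start, 51028242, at -64. No member window held TGACNNNGC, present in 13.3%. The GC box GGGCGG occurred at 7 of the 11 starts, against 45.0% of all promoters, and the CCAAT box CCAAT at 6 of the 11, in SLC11A2, FTL and ISCA2, against 34.6%. Words of different kinds did not overlap in the printed windows. A match is a description of the letters and not a bound site.

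The start windows of these genes were mostly rich in G and C. GC content ran from 63.0% to 78.7% at the starts of TFRC, STEAP3, FTL, SLC40A1, IREB2 and ISCA2, against a median of 58.7% over all promoters. CpG pairs in these windows numbered from 23 at FTL to 47 at SLC40A1, where the median promoter had 14. SLC11A2 was mixed. Its start at 51026384 had a GC content of 72.7% and 28 CpG pairs, while its other 3 starts had 42.0% to 48.0% and 4 or 5 pairs. The SLC11A2 start with a peak close by was the one of high CpG content.

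The ERG library was the deeper and longer list. Its level over the genome was 2.31 fragments against 1.60 in the Vector library, a ratio of 1.44, and this background ratio serves below as the depth scale. Fragments are the sequenced DNA pieces covering a peak's summit, worked back from the authors' fold and −log10 p-value. Over all 8055 sites where peaks of the lists overlapped, the median ratio of fragments was 2.07, above the ratio of backgrounds. The labelled cell type was checked by gene-end peaks, those within 1 kb of either end of a gene record. Of 8 erythroid markers 6 had one in both libraries, ALAS2 in the ERG library alone and SLC4A1 in neither. Both libraries had such a peak at 1 of 4 megakaryocyte markers and at none of 4 myeloid, 4 lymphoid and 3 fibroblast markers. The ERG library alone had one at the myeloid genes MPO and CSF3R and at the lymphoid gene CD79A, and the part of such cells in the results below was not tested.

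Most of the iron genes carried acetylation at an end of the gene in both libraries. Of the 9, 7 had a gene-end peak in both, against 30.2% of all 20037 protein-coding genes. None of the 9 had one in the ERG library alone, the state of 15.6% of all genes. That state was open only to the 1 gene without a Vector-library end peak, SLC11A2. Of all genes without a Vector-library end peak, 22.5% had one in the ERG library. STEAP3 had one in the Vector library alone, which was so for 0.354% of all genes, and SLC11A2 had none in either, like 53.8% of all genes. The 7 were TFRC, TFR2, FTH1, FTL, SLC40A1, IREB2 and ISCA2. As a group they cover uptake, storage, export, sensing and cluster assembly, so no role was without an acetylated gene.

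**Figure D1:**
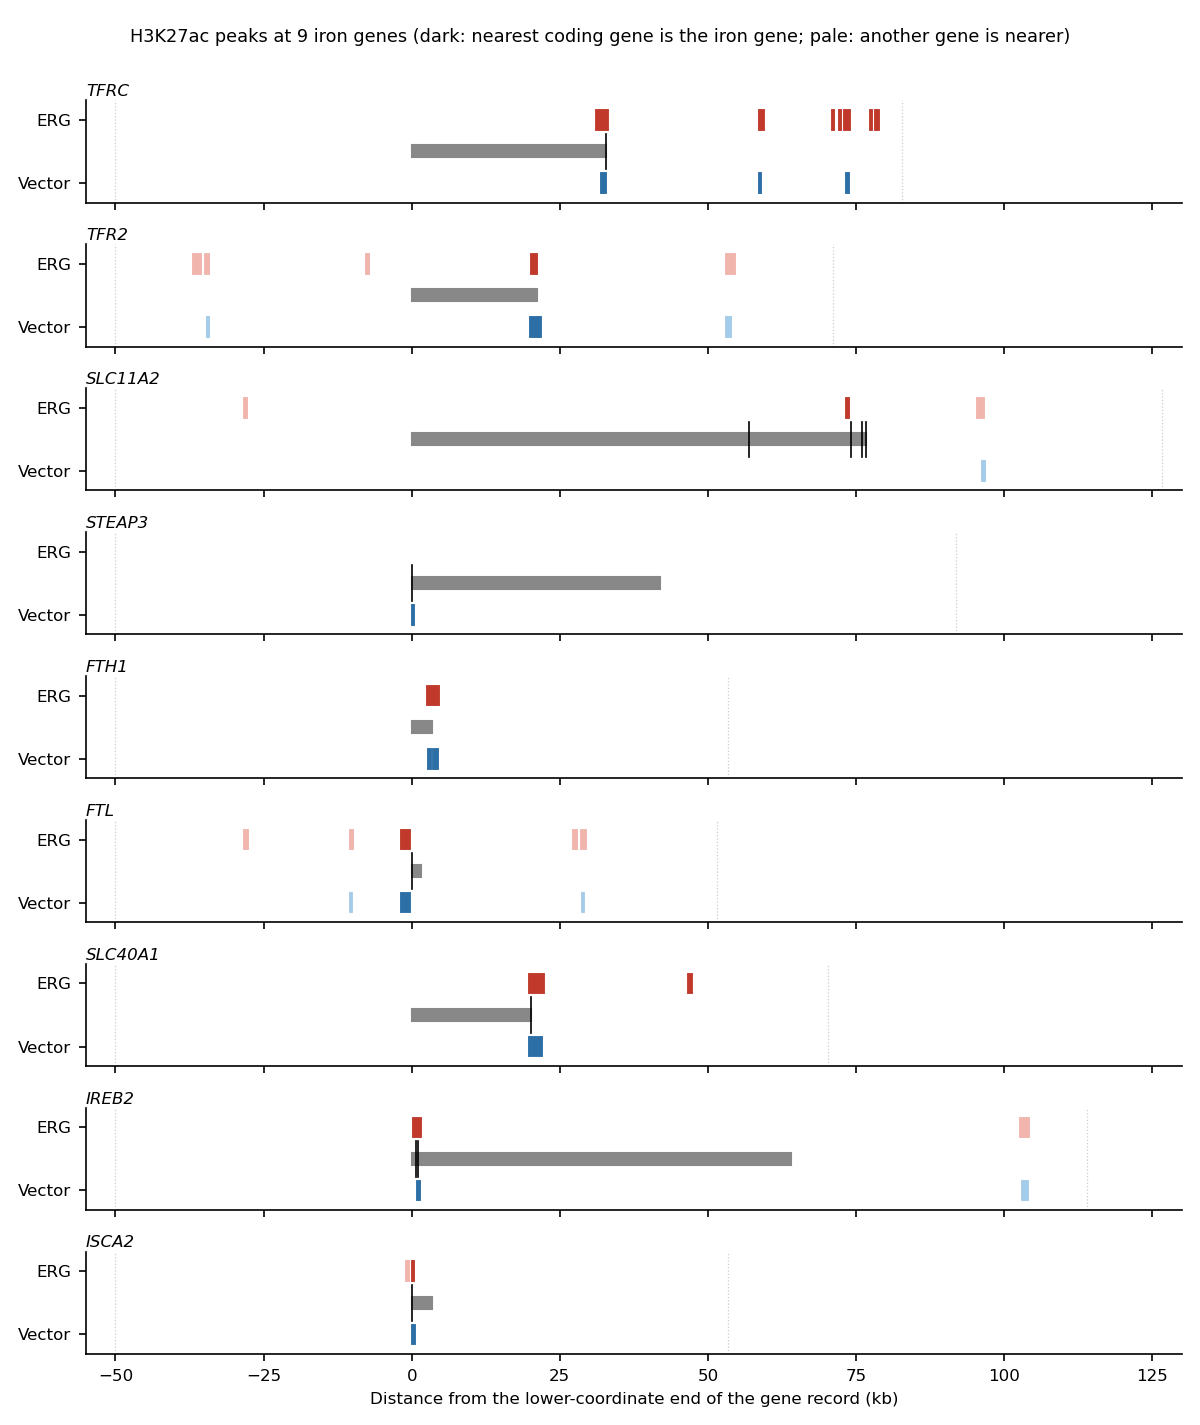
Map of the peaks at each of the 9 genes, with distance in kb on the horizontal axis, counted from the gene end of lower coordinate. Grey bars are gene records, black ticks RefSeq start sites, dotted lines the 50 kb limits, and red and blue blocks the peaks of the ERG and Vector libraries, pale where another coding gene is nearer. TFRC had 7 ERG-library peaks and 3 Vector-library peaks, all nearest to it, and STEAP3 had a Vector-library peak alone.

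Strength at the gene ends spanned a wide range. TFRC and IREB2 stood first and ISCA2 last of the 7 shared genes in both libraries, while FTH1 stood above FTL and SLC40A1 in the ERG library and below both in the Vector library. Over all genes with a gene-end peak the strongest such peak had a median of 50 fragments in the ERG library (9180 genes) and 29.0 in the Vector library (6120 genes). TFRC stood at 141 and 83, IREB2 at 111 and 56, FTH1 at 104 and 36, and FTL at 103 and 51 fragments in the ERG and Vector libraries. SLC40A1 had 64 and 40 fragments. These 5 genes lay above the median of all genes in both libraries. TFR2 had 26 and 38, and ISCA2 21 and 22, below the median of all genes except for TFR2 in the Vector library. Within the ERG library the intervals of IREB2 (91.3 to 134), FTH1 (85.0 to 126) and FTL (84.1 to 125) overlapped, so these 3 could not be ranked. The interval of TFRC (119 to 166) overlapped all of them. In the Vector library that of FTH1 (25.2 to 49.8) overlapped those of FTL (38.0 to 67.1) and SLC40A1 (28.6 to 54.5). The place of FTH1 below both there lay within counting error.

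**Figure D2:**
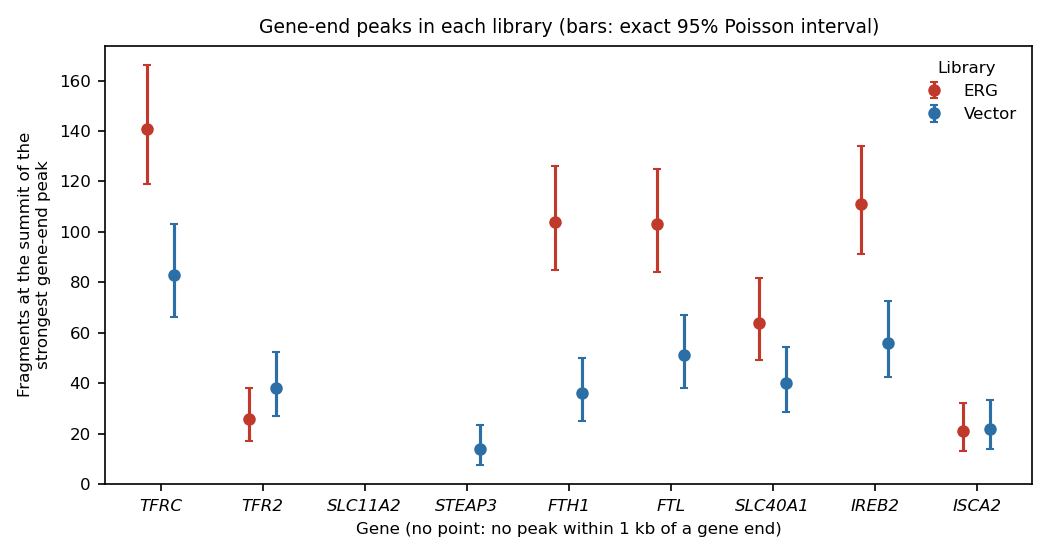
Fragments at the summit of the strongest peak within 1 kb of a gene end, for each gene and library, with exact 95% Poisson intervals. TFRC was highest in both libraries at 141 and 83 fragments, and fewer fragments in the ERG library were found at TFR2, 26 against 38, and at ISCA2, 21 against 22.

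TFRC, the receptor that brings transferrin into the cell, had the most extended acetylation of the set. The gene lies on chromosome 3 from 196049284 to 196082090, with its start site at the higher coordinate. Its promoter peak ran from -384 to 1626 bases relative to the start in the ERG library (196080464 to 196082474). In the Vector library it was narrower, from 14 to 855 bases after the start (196081235 to 196082076). Fragments at the summit were 141 and 83, a ratio of 1.70 (1.29 to 2.26), which includes the ratio of 1.44 between the backgrounds. Upstream of the gene, 6 further ERG-library peaks lay 25.8 to 45.3 kb from it in a stretch without any RefSeq gene record under a peak. The Vector library had 2 there, at 25.8 and 40.4 kb, and both overlapped ERG-library peaks.

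The intervals at both shared upstream sites of TFRC included the background ratio. At the nearer site the fragments were 44 in the ERG and 37 in the Vector library, a ratio of 1.19 (0.751 to 1.89). That interval lay wholly below the median of 2.07 over all sites. The summits were 613 bp apart, so the ratio compares different positions. At the farther site, 196122227 to 196123210 in the ERG library, the fragments were 114 and 60. The ratio there was 1.90 (1.38 to 2.64), with summits 8 bp apart. The 4 upstream peaks of the ERG library alone had 78, 78, 60 and 84 fragments. These are high numbers, but the local background around them was high as well, from 12.4 to 15.2 times the genome level, where the median over all ERG-library peaks was 3.35 times. Their folds over that background were accordingly low, from 1.80 to 2.87. The TFRC promoter itself had a background of 12.8 times the genome level in the ERG and 10.2 times in the Vector library. What raises the background over this region was not tested.

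For 1 of the 4, the interval of the number expected in the Vector library lay wholly above the number needed. These intervals hold the counting error of the ERG-library number and not that of the Vector library's own count. The 4 were also picked as peaks of the ERG library alone, a choice that can raise their numbers. The intervals therefore do not decide between the libraries. The strongest of the 4, at 196127396 to 196128157, would be expected at 58.2 fragments (46.4 to 72.0) in the Vector library, where 38 would have sufficed for a peak at the same relative background. Expected numbers for the peaks at 196120286 and 196121340 were both 54.0 (42.7 to 67.4), against 44 and 45 needed. For the peak at 196126679 the expected 41.6 (31.7 to 53.5) lay below the 43 needed, with an interval that reached above it.

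TFR2 was the single site of the set whose interval lay below the background ratio. This second transferrin receptor lies on chromosome 7 from 100620420 to 100641552, and its peaks were at the higher-coordinate end. In the ERG library a single peak at 100640604 to 100641509 had 26 fragments. In the Vector library an overlapping peak at 100640414 to 100641484 had 38 fragments, and a second one at 100641777 to 100642200, 225 bp beyond the gene and 292 bp from the first, had 28. The ratio at the overlapping site was 0.684 (0.399 to 1.16), or 0.474 (0.276 to 0.801) after division by the ratio of backgrounds. An interval below the background ratio was found at 0.695% of the 8055 sites, and 0.186% of them had a lower ratio than TFR2.

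The local background at TFR2 was lower in the ERG library too. It was 5.82 fragments against 10.2 in the Vector library, a ratio of 0.570, where all sites had a median of 1.97 and 0.0124% a lower value. The authors' fold over that background was 3.96 in the ERG and 3.48 in the Vector library. The summit at the end of TFR2 thus had fewer fragments in the ERG library, while its fold over the local background was not lower. Whether an input library was used is unknown, so the local background cannot be read as acetylation around TFR2. The level of acetylation around the peak was not tested. The Vector-library peak beyond the gene would be expected at 40.4 fragments (26.9 to 58.4) in the ERG library, where 30 would have been needed at a background scaled in the same way. At the background of 5.82 measured at the ERG-library peak nearby, 16 would have been enough, below the whole interval. That interval leaves out the counting error of the ERG library's own count. The peak was also picked as one of the Vector library alone, which can raise its number, so the interval does not decide between the libraries.

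The other peaks in the TFR2 window lay at neighbouring genes. LRCH4 had a pair of ERG-library peaks, with 76 and 111 fragments, and the stronger overlapped a Vector-library peak of 57. GNB2, a G protein subunit gene, had 73 and 37 fragments, a ratio of 1.97 (1.31 to 3.01), with summits 407 bp apart. A weak peak of 19 fragments at MOSPD3 was in the ERG library alone. The neighbours on both sides of TFR2 thus had ratios near the median of all sites, and those of LRCH4 (1.95, 1.40 to 2.73) and GNB2 did not overlap the interval at TFR2.

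SLC11A2, the endosomal iron carrier also known as DMT1, had its peak only in the ERG library. The gene lies on chromosome 12 from 50952263 to 51028886. The peak, at 51025623 to 51026123, lay inside the gene, 261 to 761 bases after the CpG-rich start at 51026384, so it was not within 1 kb of a gene end. It had 34 fragments at 3.6 times the local background. The Vector library would be expected to have 23.5 (16.3 to 32.9) at the same site, with 17 needed. The expected number reached the need and the lower bound fell short. This peak was picked as one of the ERG library alone, which can raise its number. At the other 3 starts, neither library had a peak within 1 kb. Outside the gene, LETMD1 had 42 and 17 fragments, a ratio of 2.47 (1.38 to 4.63), and a peak of 22 fragments at TMT1A was in the ERG library alone.

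STEAP3, the endosomal ferric reductase, was the single gene of the 9 without any ERG-library peak inside it or within 50 kb. It lies on chromosome 2 from 119223834 to 119265652. Its Vector-library peak, at 119223892 to 119224295, covered bases 58 to 461 after the start site. The peak was weak, with 14 fragments at 4.26 times the local background, and 4.40% of the genes with a Vector-library end peak had fewer. Scaled to the ERG library these are 20.2 fragments (11.1 to 33.9), and 12 would have been enough for a peak there. The lower bound is just under that number. Scaled instead by the medians of all overlapping sites, 29.0 fragments (15.8 to 48.6) would be expected and 14 needed. That whole interval lay above the need, but both intervals leave out the counting error of the ERG library's own count. The peak was also picked as one of the Vector library alone, which can raise its number. Neither interval therefore decides between the libraries.

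The ferritin genes carried end peaks in each library, with fewer fragments and lower scores in the Vector library. Most overlapping sites had fewer fragments in the Vector library, with a median ratio of 2.07 over all of them. When the 50% of peaks with the highest score were kept in each library, the end peaks of both genes remained only in the ERG library. That state then held for 16.2% of all genes. FTH1, the heavy chain with ferroxidase activity, lies on chromosome 11 from 61964285 to 61967634. In the ERG library a single peak of 1911 bp (61966896 to 61968806) spanned its higher-coordinate end. In the Vector library there were 2 peaks on the same site, 61966996 to 61967562 and 61967940 to 61968664, with a gap of 377 bp that held the end of the gene record. Both overlapped the ERG-library peak, and each had 36 fragments against 104. The ratio of 2.89 (1.96 to 4.35) was the highest of the 15 overlapping sites near these genes and higher than at 88.7% of all sites. Peaks at FTH1 also overlapped the lncRNA record LOC399900, so they cannot be assigned to FTH1 alone.

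FTL, the light chain, lies on chromosome 19 from 48965309 to 48966879. Its peak was wide in both libraries, 1656 and 1564 bp, and lay wholly before the start site, ending 212 bases before it in the ERG and 259 bases in the Vector library. Fragments were 103 and 51, a ratio of 2.02 (1.43 to 2.88), close to the median of all sites. The summits lay at -1520 and -1039 relative to the start. Both ferritin genes have many near-identical pseudogenes, 27 records of FTH1 and 20 of FTL in the RefSeq table. None of these records overlapped a peak of either library. No source used here states the handling of reads that map to several places, so levels inside FTH1 and FTL are uncertain.

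Other peaks near FTL belonged to its neighbours. BAX, an apoptosis effector gene, had 50 and 25 fragments, a ratio of 2.0 (1.21 to 3.37). A site in RUVBL2, within 1 kb of start sites of RUVBL2 and GYS1, had 71 and 31 fragments, a ratio of 2.29 (1.48 to 3.61), and an ERG-library peak of 43 fragments in GYS1 beside it had no counterpart. A peak of 33 fragments inside DHDH was also in the ERG library alone. No peak of either library lay inside the FTL gene record.

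SLC40A1, the cellular iron exporter, had broad acetylation around its start in both libraries. It lies on chromosome 2 from 189560590 to 189580786, with the start at the higher coordinate. The ERG-library peak reached from -2097 to 354 bases relative to the start and the Vector-library peak from -1756 to 319. At 2452 and 2076 bp they were the widest peaks of the set in each library. Fragments were 64 and 40, a ratio of 1.60 (1.06 to 2.44), which includes the background ratio. The summits were 507 bp apart. A weaker peak 26.5 kb upstream, with 29 fragments, was in the ERG library alone. The Vector library would be expected at 20.1 (13.5 to 28.8) there, with 18 needed. Scaled instead by the medians of all overlapping sites, 14.0 (9.39 to 20.1) would be expected, below the 15 needed.

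IREB2, the iron sensor that acts on mRNAs of this pathway, had the highest enrichment over background of any peak in the set. The gene lies on chromosome 15 from 78437431 to 78501453, and its RefSeq starts are at 78438216 and 78438421. The ERG-library peak (78437588 to 78439039) covered both starts, and the Vector-library peak (78438241 to 78438843) the second. Folds at the summits were 8.08 and 8.18, and fragments 111 and 56, a ratio of 1.98 (1.42 to 2.78). Summits were 49 bp apart. The other site in the window, at the proteasome gene PSMA4, had 63 and 26 fragments, a ratio of 2.42 (1.51 to 3.99).

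ISCA2, of mitochondrial cluster assembly, had the peak of lowest fragment number among the shared gene ends. It lies on chromosome 14 from 74493765 to 74497106, head to head with NPC2, whose RefSeq starts are at 74493305 and 74493512. Just after its own start, peaks of both libraries began at the same base, 36 bases into the gene. They had 21 fragments in the ERG and 22 in the Vector library. The ratio of 0.955 (0.499 to 1.82) was lower than at all but 1.68% of overlapping sites, though its interval includes the background ratio. Folds were 4.13 and 6.06. On the NPC2 side, 471 bp away, the ERG library had a peak of 21 fragments (74492831 to 74493329) without a Vector-library counterpart. The Vector library would be expected at 14.5 fragments (9.0 to 22.2) there, with 11 needed.

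Across the set, peaks of the Vector library were mostly found again and those of the ERG library less often. Of the 18 Vector-library peaks, 16 had a counterpart, 88.9% (65.3 to 98.6, exact binomial), against 91.0% over the whole list. The 2 without one were those at STEAP3 and beyond the end of TFR2. Of the 27 ERG-library peaks, 15 had a counterpart, 55.6% (35.3 to 74.5), against 41.1% of the whole list. The ERG-library peaks with a counterpart had a median of 71.0 fragments and the other 12 a median of 38.5. For 2 of these 12 the interval of the number expected in the Vector library lay wholly above the number needed. They were the farthest upstream peak of TFRC and the weaker peak of LRCH4. Such an interval leaves out the counting error of the Vector library's own count. The 12 were also picked for a peak in the ERG library alone, which can raise their numbers. These intervals therefore do not show a difference between the libraries. For 9 the interval reached below the number needed, and for 1 the expected number was itself too low. When fragments and background were scaled by the medians of all overlapping sites, the same 2 peaks stayed above by their whole interval, at 40.6 (32.4 to 50.3) against 31 needed for TFRC and 36.7 (28.9 to 46.0) against 25 for LRCH4. The other 10 then split into 6 whose interval reached below the need and 4 whose expected number was itself too low. These 4 were the TFRC peak at 196126679 and the peaks at MOSPD3, GYS1 and upstream of SLC40A1.

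Of the 8 ERG-library peaks at a gene end 7 had a counterpart, and of the 8 that were nearest to an iron gene but away from its ends 2 had one. TFRC held 6 of these 8. In the Vector library 8 of 10 peaks at a gene end and both peaks away from ends had a counterpart. In 12 of 27 ERG-library and 6 of 18 Vector-library peaks another coding gene was nearer than the iron gene. The same counts by position were not made over all peaks of the lists, so they cannot be read as traits of the iron genes. The ERG-library peaks near the iron genes were 329 to 2452 bp wide, with a median of 762 bp, and the Vector-library peaks 297 to 2076 bp, with a median of 573 bp.

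At the 15 overlapping sites, the ratio of fragments lay near that of the whole list. The median ratio was 1.97, or 1.37 after scaling by the backgrounds, against 2.07 and 1.43 over all sites. An interval above the background ratio was found at 3 of the 15, FTH1, RUVBL2 and PSMA4, and at 37.8% of all sites. An interval below it was found at 1, TFR2. When the ratios were instead scaled by the median of all sites, none was above and 3 were below. Shares over all sites were not computed at that scale, so these counts have no value to be set against. At the 9 sites nearest to an iron gene itself the median ratio was 1.70.

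**Figure D3:**
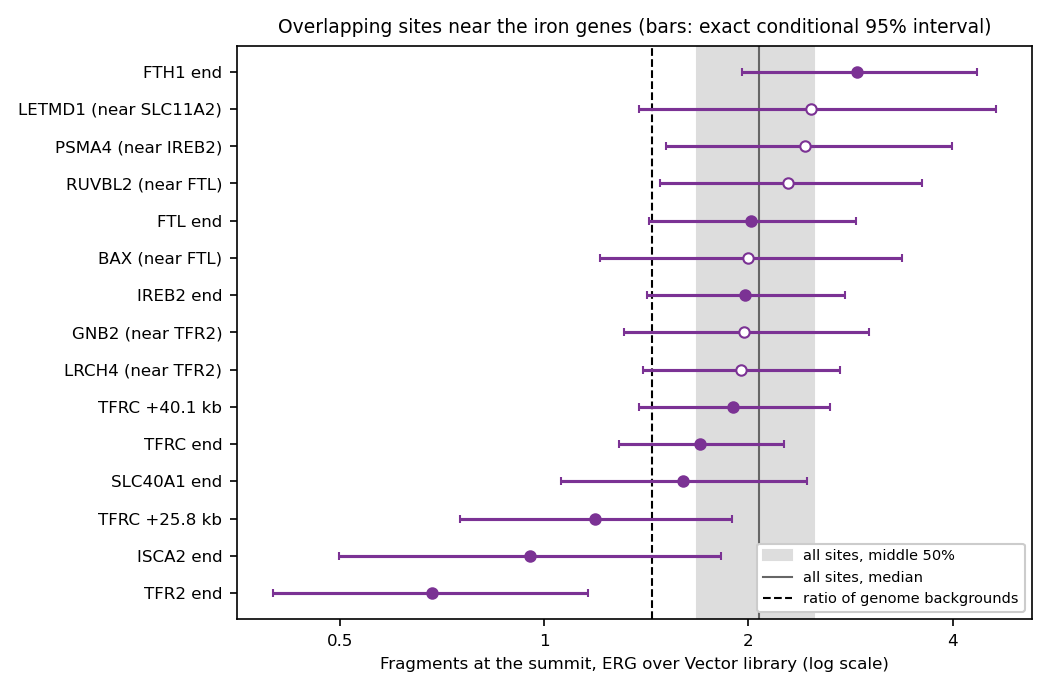
Ratio of fragments (ERG over Vector library, log scale) at the 15 overlapping sites near the iron genes, with exact conditional 95% intervals. Filled points are sites nearest to the iron gene and open points those nearest to a neighbour; the dashed line is the ratio of backgrounds, 1.44, and the grey line and band the median, 2.07, and middle 50% of all sites. TFR2 and ISCA2 lie lowest, at 0.684 and 0.955, and FTH1 highest at 2.89.

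The length covered by peaks was greater in the ERG library around 8 of the 9 genes, as it was around 73.0% of all protein-coding genes. STEAP3 was the exception, with 0 bp against 404 bp, a direction found at 1.41% of all genes. The largest differences were at TFRC (5647 against 1757 bp), TFR2 (5035 against 2623 bp) and FTL (4415 against 2280 bp). With the ERG-library list shortened by score to as many peaks as the Vector library had, these differences fell to 2000 bp at TFRC, 1056 bp at TFR2 and 744 bp at FTL. The median difference was 1238 bp. Over all genes it was 801 bp, and over the 14901 genes with a peak in the window 1250 bp. Peaks nearer to neighbouring genes made up part of this length. Counting only peaks nearest to the iron gene, TFR2 had 906 against 1495 bp and ISCA2 335 against 479 bp, so that both changed direction, and FTL had 1656 against 1564 bp. TFRC kept its full difference, since no other coding gene was nearer to its peaks.

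**Figure D4:**
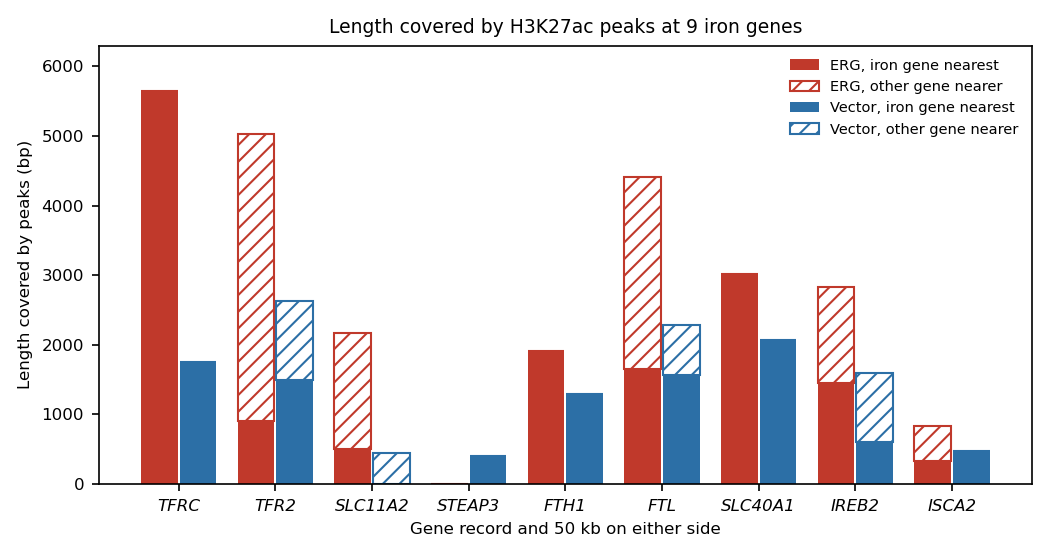
Length in bp covered by peaks inside each gene record or within 50 kb of it, in the ERG library (red) and the Vector library (blue). Solid parts are peaks nearest to the iron gene and hatched parts peaks nearer to another coding gene; TFRC had the greatest length in the ERG library, 5647 bp, none of it nearer to another gene.

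Other genes of the pathway were read in the same way, 55 in number. A gene-end peak was present in both libraries at 24 of them, in the ERG library alone at 14, in the Vector library alone at none and in neither at 17. Among the 31 that lacked one in the Vector library, 14 had one in the ERG library, 45.2% (27.3 to 64.0), against 22.5% of all genes lacking one there. With the shortened ERG-library list it was 4 of 31, 12.9%, against 8.85% of all genes. Iron-sulphur cluster genes made up most of these 14.

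Of 16 mitochondrial cluster genes, both libraries had an end peak at 7, and the ERG library alone at 6 more. Covered lengths include peaks of neighbouring genes. The largest differences of covered length among the 6 were at BOLA1 (8239 against 2912 bp) and BOLA3 (4323 against 520 bp). Their gene-end peaks had 14 and 47 fragments in the ERG library. With the shortened ERG-library list, BOLA1 and BOLA3 had a gene-end peak in neither library. All 9 genes of the cytosolic cluster machinery had a gene-end peak in the ERG library, 6 of them also in the Vector library. Of all 20037 coding genes, 9180 had one in the ERG library. The 3 cytosolic genes with one in the ERG library alone were NDOR1 (34 fragments), CIAO3 (15 fragments) and CIAO2B (29 fragments). With the shortened ERG-library list, NDOR1 and CIAO3 had one in neither library, and NUBP2 and CIAPIN1 in the Vector library alone.

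Gene-end peaks were shared at 4 of 12 other uptake genes. TF, the transferrin gene itself, and SLC39A14, a metal carrier, had one in the ERG library alone, with 42 and 20 fragments, and 6 had none. All 3 genes of mitochondrial iron import and its partner had one in the ERG library. SLC25A28 (21 fragments) had no Vector-library peak at a gene end, but both libraries had a peak within 1 kb of a start site of it. In the storage group 3 of 4 had one in both, and of 2 export genes 1 did. In the sensing group 1 of 9 had one in both and 6 in neither, while its median difference in covered length was 1023 bp, against 314 bp in the uptake group. ERFE, the erythroid hormone that lowers hepcidin (43 fragments), and EPAS1, a hypoxia factor (24 fragments), had one in the ERG library alone. When windows around start sites were used instead, ERFE had no peak in either list, and EPAS1 again had one in the ERG library alone. With the shortened ERG-library list, ERFE, EPAS1, SLC39A14 and SLC25A28 lost their gene-end peak, while TF kept it.

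**Figure D5:**
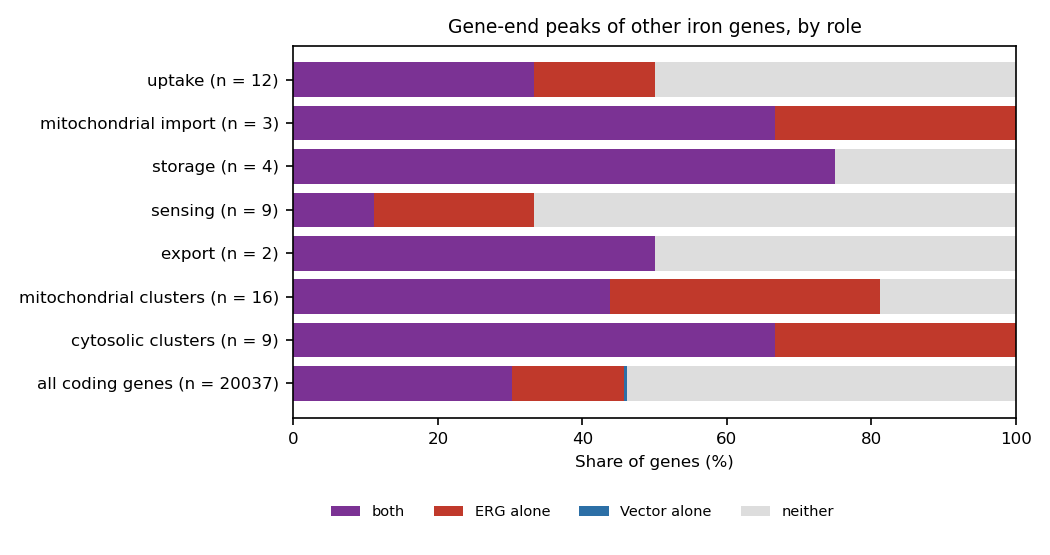
Share of genes in percent with a gene-end peak in both libraries, the ERG library alone, the Vector library alone or neither, for 55 other iron genes by role and for all 20037 protein-coding genes. The cytosolic cluster group had a peak in the ERG library at all 9 genes, and the sensing group had none in either library at 6 of 9.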

How the data were processed

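H3K27ac was measured in 2 libraries of F36P cells, each deposited as a peak list of 10 columns. Per the submitters' processing notes, Bowtie2, MACS2 and deepTools were used with hg38, without versions. Settings and any input library are not given in the sources used here. Each summit has a deposited fold (a ratio), −log10 p-value and −log10 q-value, and the deposited score follows the −log10 q-value. These values are the authors'. The lowest −log10 q-value was 1.31 and 1.32.

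Fragments and local background were solved from the deposited fold and −log10 p-value with the MACS2 formulas, and came out whole for 99.9% of the peaks of each list (relative error below 0.0001). The calculation was tested on simulated data. The depth ratio is that of the lowest backgrounds. The number needed for a peak is the smallest that reaches the other list's lowest −log10 p-value at the scaled background. Peaks overlapping by at least 1 bp share a site. Genes and start sites came from RefSeq GRCh38.p14. Binomial and Poisson intervals are exact (95%). Intervals of expected numbers hold the counting error of the library with the peak and not that of the other library. They were worked out only for peaks found in 1 library alone. That choice can raise the numbers of the library with the peak, and no correction was made for it. Python 3.11.15, SciPy 1.17.1 and pandas 2.3.3 were used. Exon positions were not used here.

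All 9 genes were named. Of the other iron genes, those with a gene-end peak in 1 library alone were named, up to 4 per role, except some that are not reported here. Members, lists and alternatives (windows, thresholds, overlap, scaling) were chosen with earlier results of these data known.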

Additional observations from a re-analysis of the deposited data

How the results depend on the processing

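With 1 library per group, no alternative carries a test. No paired analysis was possible because each group held a single library. Of the alternative values of the main results, 66 stayed within their interval or within 1.5 times, and 19 moved. In 1 alternative the ERG-library peaks of lowest score were dropped until both lists were equally long. Then 85.7% of the ERG-library peaks near the iron genes had a counterpart (71.5% over the whole list). Of the 9 genes 3 had an end peak only in the Vector library (TFR2, STEAP3 and ISCA2), against 3.66% of all genes. The median difference in covered length was 708 bp, against 172 bp over all genes. Of the other iron genes 4 were then in the state of ERG alone (12.9% of the 31 without one in the Vector library), 3 of Vector alone and 27 of neither. Of all genes 6.15%, 3.66% and 63.3% were in these states. Keeping the 50% of peaks with the highest score in each library left 3 of the 9 genes with an end peak in both. In ERG alone there were 2, in Vector alone 1 (ISCA2) and in neither 3. Over all genes these states held 18.2%, 16.2%, 0.404% and 65.2%, in the same order. Of the 55 other iron genes 28 had none. A gene-end window of 0.5 kb put 1 gene, IREB2, in the ERG library alone. A window of 1 kb around start sites, for the 7 genes with an entry, put SLC11A2 there, so 1 gene was in that state and 0 in neither. The median difference in covered length was 376 bp within 10 kb, 2342 bp within 100 kb and 501 bp for peaks nearest to the iron gene. Over all genes it was 305 bp within 10 kb and 1377 bp within 100 kb. Scaling by the median of all sites gave 0 sites above and 3 below, with no share over all sites computed at that scale.

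Differences of single genes (ERG minus Vector) reversed at ISCA2 to -479 bp under both shortened lists and -144 bp for peaks nearest to it, at TFR2 to -589 bp for peaks nearest to it and -139 bp within 10 kb, and at STEAP3 to 176 bp within 100 kb. The causes were not tested. Scaling the ERG list to the Vector background changed the state of none of the 9 genes. Another 18 single-gene values moved by over 1.5 times without reversing, among them TFRC, to 2000 bp with lists of equal length and 1169 bp within 10 kb. The scaling of unshared peaks by the medians of all sites was chosen after seeing the data. The lowest number of fragments in a peak was 8 in the Vector and 9 in the ERG library.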
